A study of Mus musculus with 16 samples.

Results

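The receptors, SMAD proteins and feedback regulators of the TGF-beta pathway were followed in myeloid-derived suppressor cells of melanoma-bearing mice by the 3′ read counts of 10 genes, taken by symbol from the 24421 symbols counted. They comprise the receptor genes Tgfbr1 and Tgfbr2, the SMAD genes Smad2, Smad3, Smad4 and Smad7, the co-repressor genes Ski and Skil, and the ubiquitin ligase genes Smurf1 and Smurf2. All 10 had reads in each of the 16 libraries and passed the filter on low counts in every comparison.

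The libraries came from 4 wild-type (WT) mice and 4 Nlrp3-/- mice, all labelled as strain C57BL/6 and all carrying tumors of B16.F10, a mouse melanoma line implanted under the skin of the back. NLRP3 is the sensor of an inflammasome that drives release of IL-1β and IL-18. In the Nlrp3-/- line the gene was disrupted in every cell of the animal by an EGFP cassette placed at the start codon, so the EGFP insertion came with the genotype. From the spleen of each mouse the monocytic subset (M-MDSCs, CD11b-high Ly6C+ Ly6G-) and the granulocytic subset (G-MDSCs, CD11b-high Ly6C- Ly6G+) were sorted, and each RNA sample came from 1 mouse. This gave 4 groups of 4 libraries: WT M-MDSCs, Nlrp3-/- M-MDSCs, WT G-MDSCs and Nlrp3-/- G-MDSCs. Per the methods the WT animals were purchased C57BL/6J mice and the Nlrp3-/- line, on a C57BL/6 background, came from another laboratory, so source and genotype cannot be told apart. The paper reports reduced growth of B16.F10 tumors in Nlrp3-/- mice, so tumor burden and genotype cannot be told apart either. The mice were sex- and age-matched per the methods, and no tumor-free animals are among these libraries.

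TGF-beta binds the type II receptor encoded by Tgfbr2, which then phosphorylates the type I receptor encoded by Tgfbr1. The type I receptor activates SMAD2 and SMAD3, which join SMAD4 and enter the nucleus to act on target genes. SMAD7 is the inhibitory SMAD: it occupies the receptor and recruits the ubiquitin ligases SMURF1 and SMURF2, and its own gene is a well-known target of the pathway. SKI and SKIL (SnoN) hold SMAD complexes in a repressed state. In myeloid cells TGF-beta is known as a signal that restrains inflammatory activation.

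Read totals ran from 2295967 to 6079866 per library. A level is given as CPM, the read count divided by the TMM-scaled size of its library (set over all 16 libraries) and expressed on the usual per-megaread scale, with mean ± SD and n = 4. A fold change comes from an edgeR quasi-likelihood fit of the groups compared, scaled on their own, with its standard error (SE), and a gene is called when its Benjamini-Hochberg adjusted p is under 0.05 and its fold is above 1.5. Nlrp3 itself was at 65.6 ± 22.5 CPM in WT M-MDSCs and 0.981 ± 0.612 CPM in Nlrp3-/- M-MDSCs. In G-MDSCs it was at 296 ± 34.2 CPM in WT mice and 9.38 ± 3.76 CPM in Nlrp3-/- mice, so every library matched its genotype label. The summed CPM of 8 monocytic markers ran from 6091 to 9232 in the M-MDSC libraries and from 786 to 1356 in the G-MDSC libraries. The 8 granulocytic markers measured summed to between 107600 and 162000 in G-MDSCs and to between 1445 and 2421 in M-MDSCs, with the exception of WT M-MDSC replicate 2 at 8730. Ly6g was not analysed here. In bulk samples of this kind, fewer cells of a type and less RNA per cell cannot be told apart.

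Smad7 was the member that changed with genotype, in both subsets. Its level in Nlrp3-/- M-MDSCs was 2.45-fold lower than in WT M-MDSCs, and in Nlrp3-/- G-MDSCs it was 2.86-fold lower than in WT G-MDSCs. None of the other 9 members was called in either genotype comparison by the edgeR fit described above or by DESeq2. With a correction for GC content and transcript length, edgeR also called Tgfbr1 and Smad2, both higher in Nlrp3-/- G-MDSCs. Over all genes tested 10.6% were called in M-MDSCs (7.1% lower) and 16.4% in G-MDSCs (11.7% lower). In M-MDSCs no other member reached an unadjusted p under 0.05, and in G-MDSCs 1 did, Smad4. Among all genes tested 3002 of 9986 reached it in M-MDSCs and 2997 of 9273 in G-MDSCs (edgeR).

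Between the subsets 3 of the 10 members were called in WT mice and 4 in Nlrp3-/- mice. In WT mice Tgfbr2, Smad7 and Smurf2 were higher in G-MDSCs than in M-MDSCs, and in Nlrp3-/- mice Tgfbr2, Smad3 and Ski were higher and Smurf1 lower. The same comparison called 53.3% of all genes tested in WT mice and 51% in Nlrp3-/- mice. A difference between the subsets was thus common among genes. How the members compared with that share depended on the fold minimum. Without it 6 of the 10 members were called in WT mice, against 5534 of 9739 genes. In Nlrp3-/- mice 5 of the 10 were, against 5430 of 10071 genes.

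**Figure D1:**
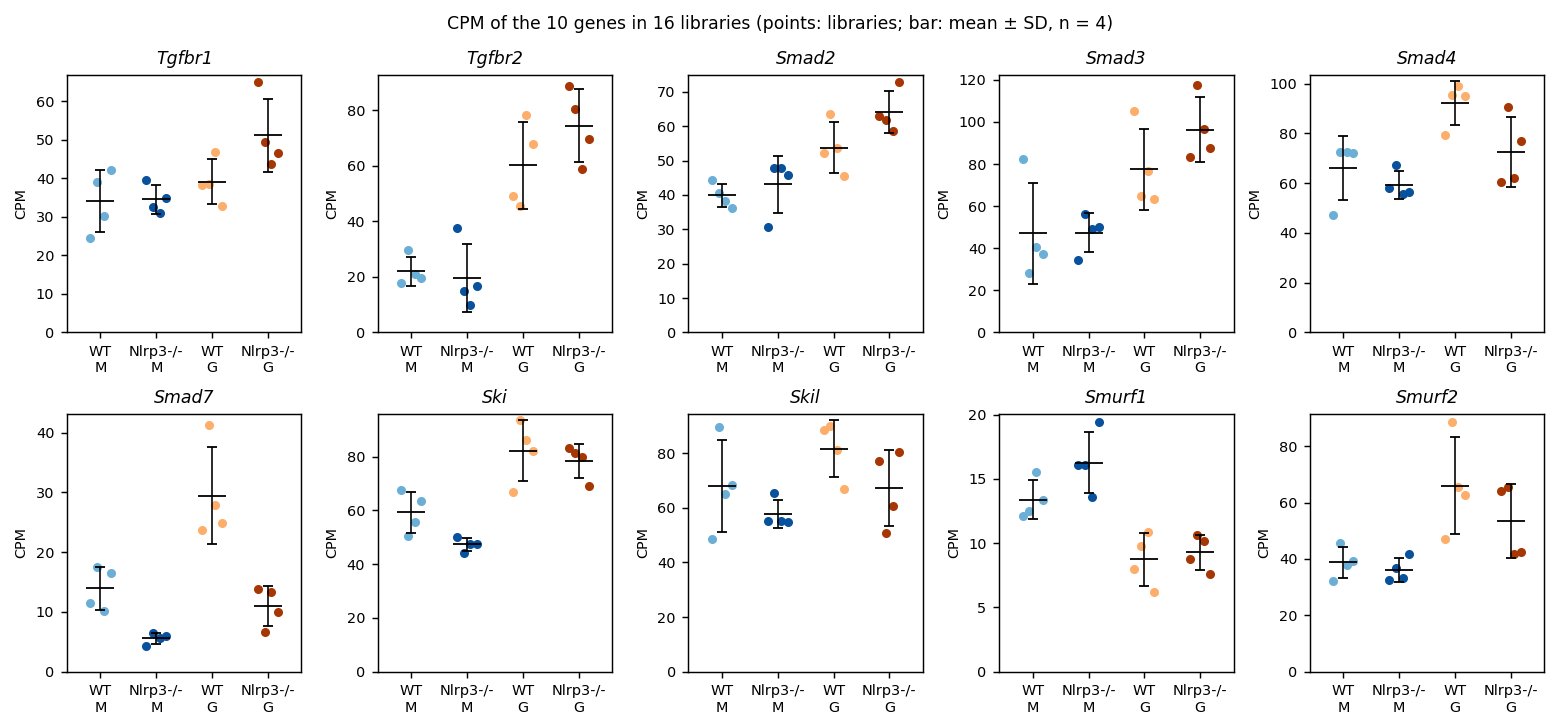
CPM of each of the 10 genes (y axis, starting at 0) in the 16 libraries, with the groups along the x axis (M, M-MDSCs; G, G-MDSCs). Points are libraries and black bars are the mean ± SD of 4 libraries. Smad7 lies at 4.30 to 6.48 CPM in Nlrp3-/- M-MDSCs and at 10.2 to 17.6 CPM in WT M-MDSCs, and Tgfbr2 lies higher in G-MDSCs than in M-MDSCs of both genotypes.

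The 2 receptor genes behaved differently between the subsets, and their start regions are shown because both receptors are needed for a signal and the windows differ in base composition. Tgfbr1 lies at chr4:47353222-47414931 on the plus strand and Tgfbr2 at chr9:116084293-116175360 on the minus strand of mm10. The RefSeq promoter windows (GRCm38.p6, 250 bases before to 50 after the start) are printed 5′ to 3′ with capitals marking matches on either strand to 2 motifs: CAGAC, the core of the CAGA box that SMAD3 and SMAD4 bind, and GGCGCC, a GC-rich SMAD site. The Tgfbr1 window is chr4:47352972-47353271 and the Tgfbr2 window is chr9:116175314-116175613.
Tgfbr1: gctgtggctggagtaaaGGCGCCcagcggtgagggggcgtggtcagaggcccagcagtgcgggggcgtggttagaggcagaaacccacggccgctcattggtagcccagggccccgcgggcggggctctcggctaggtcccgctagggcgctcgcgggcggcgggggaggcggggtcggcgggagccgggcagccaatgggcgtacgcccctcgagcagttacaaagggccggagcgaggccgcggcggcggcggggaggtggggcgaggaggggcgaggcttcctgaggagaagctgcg
Tgfbr2: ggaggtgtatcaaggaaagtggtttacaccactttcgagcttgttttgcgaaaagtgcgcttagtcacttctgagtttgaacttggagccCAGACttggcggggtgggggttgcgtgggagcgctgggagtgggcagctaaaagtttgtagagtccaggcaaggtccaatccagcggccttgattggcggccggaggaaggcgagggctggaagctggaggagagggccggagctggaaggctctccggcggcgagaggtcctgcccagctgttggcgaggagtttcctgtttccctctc

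The Tgfbr1 window held 34 CpG dinucleotides at a GC content of 74.7% and the Tgfbr2 window 15 at 59%, against a median of 7 CpG and 52.7% over the 32851 windows of the table. A second RefSeq start of Tgfbr1, with its window at chr4:47385966-47386265, held 3 CpG dinucleotides at 52% GC, and 1 CAGAC match. CAGAC is present in 49.6% of all windows and GGCGCC in 11.9%, and each was found once in the window shown with it in capitals. The SMAD palindrome GTCTAGAC occurs in 0.213% of all windows and in none of the 7 windows that matched Tgfbr1 (2 windows), Tgfbr2, Smad3, Ski, Smurf1 and Smurf2. Of these 7 windows, 4 held CAGAC and 3 held GGCGCC. These matches are descriptions of the letters and were not tied to any expression value.

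Tgfbr2, the ligand-binding type II receptor, was the member with the largest difference between the subsets under TMM. With library totals Smurf1 differed more, at -1.35 in WT and -1.64 in Nlrp3-/- mice. In WT M-MDSCs Tgfbr2 stood at 17.8, 29.5, 21.1 and 19.5 CPM in replicates 1 to 4. The WT G-MDSCs of the same mice had 49.1, 45.4, 78.3 and 67.7 CPM. All 4 G-MDSC libraries were above all 4 M-MDSC libraries, and the fitted difference was 1.44 on the log2 scale (SE 0.23; edgeR adjusted p = 0.000225). Among Nlrp3-/- mice the M-MDSC libraries had 37.5, 14.8, 9.82 and 16.7 CPM. The Nlrp3-/- G-MDSC libraries had 88.7, 80.5, 58.6 and 69.5 CPM, again without overlap, and the difference was 1.77 (SE 0.34; edgeR adjusted p = 0.000622). Nlrp3-/- M-MDSC replicate 1, at 37.5 CPM from 322 reads, was more than 2 times the next library of its group. Its monocytic and granulocytic marker sums, 7763 and 2057 CPM, lay between those of the other 3 libraries of that group. Without that library the subset difference in Nlrp3-/- mice was 2.31 (edgeR adjusted p = 1.66e-06).

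By genotype Tgfbr2 was not called. Its means were 22.0 ± 5.20 CPM in WT and 19.7 ± 12.2 CPM in Nlrp3-/- M-MDSCs, with a log2 fold change of -0.10 (95% interval -0.91 to 0.71). The sign of this small difference turned with the library left out, from -0.69 (edgeR adjusted p = 0.0821) without Nlrp3-/- M-MDSC replicate 1 to 0.12 without replicate 3 of that group. In G-MDSCs the means were 60.1 ± 15.6 and 74.3 ± 13.1 CPM, with a log2 fold change of 0.22 (95% interval -0.24 to 0.67).

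Tgfbr1, the type I receptor kinase, varied less. It had 34.0 ± 8.07 CPM in WT M-MDSCs, 34.5 ± 3.75 CPM in Nlrp3-/- M-MDSCs and 39.1 ± 5.79 CPM in WT G-MDSCs. Nlrp3-/- G-MDSCs had the highest mean, 51.2 ± 9.45 CPM, and their lowest library (43.7 CPM) lay above the highest Nlrp3-/- M-MDSC library (39.6 CPM). None of the comparisons of Tgfbr1 was called, the nearest being G-MDSCs against M-MDSCs in Nlrp3-/- mice at 0.45 on the log2 scale (SE 0.20; edgeR adjusted p = 0.0717). Between genotypes in G-MDSCs the log2 fold change was 0.30 (95% interval -0.12 to 0.72). With a correction for GC content and transcript length it was 0.82 and was called (edgeR adjusted p = 0.0174).

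The count ratio of Tgfbr2 to Tgfbr1 within a library does not depend on scaling between libraries. It was 0.660 ± 0.133 in WT M-MDSCs and 0.550 ± 0.274 in Nlrp3-/- M-MDSCs. In G-MDSCs it was 1.55 ± 0.409 in WT and 1.46 ± 0.132 in Nlrp3-/- mice. The highest M-MDSC library had a ratio of 0.947 and the lowest G-MDSC library 1.18, so the subsets did not overlap in either genotype. The ratio was chosen after the values had been seen and carries no test.

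**Figure D2:**
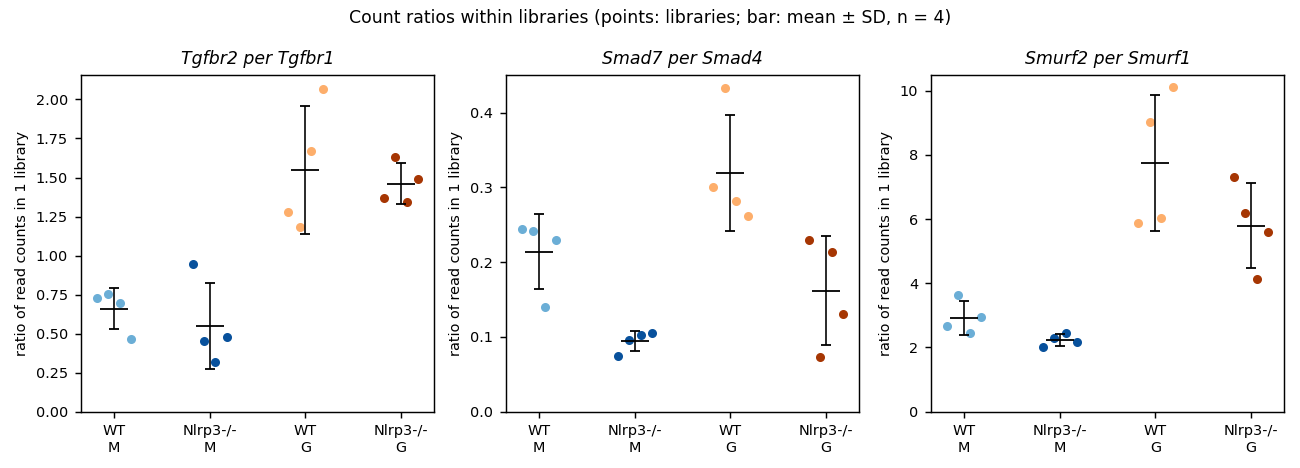
Ratio of the read counts of 2 genes within a library (y axis, starting at 0) for Tgfbr2 per Tgfbr1, Smad7 per Smad4 and Smurf2 per Smurf1, by group along the x axis. Points are libraries and black bars are the mean ± SD of 4 libraries. Tgfbr2 per Tgfbr1 runs from 0.318 to 0.947 in M-MDSCs and from 1.18 to 2.07 in G-MDSCs.

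Smad3, a SMAD activated by the receptor, was higher in G-MDSCs. In WT M-MDSCs it had 82.3, 28.1, 40.7 and 37.4 CPM, and in the WT G-MDSCs of the same mice 105, 64.6, 76.6 and 63.4 CPM. Mouse 1 of the WT group was the highest of its group in both subsets, and the groups overlapped for that reason alone. The difference in WT mice was 0.72 on the log2 scale (SE 0.30) and was not called (edgeR adjusted p = 0.0608). With the mouse as a block, which compares the subsets within each animal, it was 0.80 and was called (edgeR adjusted p = 0.00117). Without the block it was 1.09 when WT M-MDSC replicate 1 was left out (edgeR adjusted p = 0.00183). It was 0.46 without WT M-MDSC replicate 2 (edgeR adjusted p = 0.205), and without any other library it lay between 0.55 and 0.81 and was not called.

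The Nlrp3-/- M-MDSC libraries had 34.3, 56.1, 49.1 and 50.2 CPM of Smad3. The G-MDSC libraries had 83.2, 118, 96.8 and 87.9 CPM, all above the M-MDSC libraries, and the difference was 0.91 (SE 0.19; edgeR adjusted p = 0.00093). By genotype Smad3 differed by 0.03 (95% interval -0.61 to 0.66) in M-MDSCs and by 0.23 (95% interval -0.18 to 0.65) in G-MDSCs, neither called.

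Smad2, the other SMAD that the receptor activates, had 39.9 ± 3.39 CPM in WT M-MDSCs and 53.8 ± 7.48 CPM in WT G-MDSCs, without overlap. The difference of 0.43 on the log2 scale had an edgeR adjusted p of 0.0397 and lay under the fold minimum. For Nlrp3-/- mice the means were 43.1 ± 8.29 and 64.1 ± 6.17 CPM, again without overlap, with a difference of 0.46 and an edgeR adjusted p of 0.0466, also under the fold minimum. By genotype the log2 fold changes were 0.13 in M-MDSCs and 0.16 in G-MDSCs, neither called. With the correction for GC content and length the G-MDSC value was 0.70 and was called (edgeR adjusted p = 0.0216).

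Smad4, the shared partner of the activated SMADs, had 66.0 ± 12.7 CPM in WT M-MDSCs and 92.1 ± 8.82 CPM in WT G-MDSCs. The WT groups did not overlap, and the difference of 0.48 (edgeR adjusted p = 0.0344) was under the fold minimum. Without Nlrp3 the means were 59.3 ± 5.50 CPM in M-MDSCs and 72.5 ± 14.2 CPM in G-MDSCs, a difference of 0.18 that was not called. In G-MDSCs the genotypes differed by -0.43 (95% interval -0.82 to -0.04), with an unadjusted p of 0.032 and an adjusted p of 0.115 by edgeR.

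Smad7, the inhibitory SMAD, lies at chr18:75367529-75395935 on the plus strand of mm10. In WT M-MDSCs it stood at 11.5, 17.6, 10.2 and 16.4 CPM, from 48 to 125 reads per library. In Nlrp3-/- M-MDSCs it stood at 4.30, 6.48, 5.64 and 5.91 CPM, from 27 to 46 reads. Each Nlrp3-/- library was below each WT library, and Smad7 fell by 1.29 on the log2 scale (SE 0.27, 95% interval -1.87 to -0.72; edgeR adjusted p = 0.0115). In G-MDSCs the WT libraries had 23.7, 41.3, 27.9 and 24.9 CPM, from 64 to 122 reads. The Nlrp3-/- libraries had 13.9, 6.67, 13.3 and 9.97 CPM, from 27 to 64 reads. Again no Nlrp3-/- library reached the lowest WT library, and the change was -1.51 (SE 0.29, 95% interval -2.14 to -0.89; edgeR adjusted p = 0.00309).

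Smad7 stayed called in both subsets whichever of the 8 libraries was left out. Over these fits the log2 fold change ran from -1.42 to -1.14 in M-MDSCs and from -1.64 to -1.30 in G-MDSCs. The value nearest to 0 in M-MDSCs, -1.14 (edgeR adjusted p = 0.044), was the one without WT M-MDSC replicate 2, the library with 8730 CPM of granulocytic markers and the highest Smad7 level of its group. The Smad7 changes of the 2 subsets differed by -0.11 (95% interval -0.96 to 0.74; edgeR adjusted p = 0.996), an interval that leaves room for a difference of either sign.

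These changes came among many. In M-MDSCs 10.6% of the 9986 genes tested were called between genotypes, 3.51% higher and 7.1% lower (33.1% of the calls were higher under TMM, 54.6% with library totals and 43.2% with GC and length corrected), and 19.3% had groups that did not overlap. Of the 10 members 1 was called, which is near that share, and 2 had groups that did not overlap, Smad7 and Ski. In G-MDSCs 16.4% of the 9273 genes tested were called, 4.7% higher and 11.7% lower (28.6% of the calls higher, against 48.1% with library totals, 42.5% with the GC and length correction and 43.4% in 1 fit of all 16 libraries), and 24.4% did not overlap, against 1 member called and 1 not overlapping. The median log2 fold change of the 10 members was -0.09 in M-MDSCs, against 0.07 over all genes tested, and -0.08 in G-MDSCs, against 0.03. By p, Smad7 ranked 334 among the genes tested in M-MDSCs, and its rank was 411 for G-MDSCs.

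The marker genes of red pulp macrophages, the resident phagocytes of the spleen, moved with genotype in the opposite direction. Of 7 such genes, all of them tested, 5 were called higher in Nlrp3-/- M-MDSCs and 6 in Nlrp3-/- G-MDSCs. Their summed level was 138 to 281 CPM in Nlrp3-/- M-MDSCs against 68.6 to 110 CPM in WT M-MDSCs. For G-MDSCs it was 354 to 523 CPM against 77.8 to 213 CPM in WT, with none of the 7 at 0 in any group. The dendritic cell markers summed to 478 to 813 CPM in Nlrp3-/- M-MDSCs against 325 to 468 CPM in WT, and for G-MDSCs to 657 to 1023 CPM against 278 to 501 CPM, with 1 of 3 and 1 of 2 tested genes called higher and Xcr1 at 0 in Nlrp3-/- G-MDSCs. The monocytic markers summed to 1122 to 1356 CPM in Nlrp3-/- G-MDSCs against 786 to 1103 CPM in WT, with 1 of 7 tested genes called higher. The NK cell markers summed to 90.2 to 136 CPM in Nlrp3-/- M-MDSCs against 35.1 to 70.9 CPM in WT, and for G-MDSCs to 53.8 to 92.1 CPM against 21.0 to 47.9 CPM, with 1 of 5 and 1 of 4 tested genes called higher. Other marker calls went lower in Nlrp3-/- cells: 1 of 8 tested monocytic genes in M-MDSCs and 1 of 8 granulocytic genes in G-MDSCs. Of the B cell markers, 1 of 3 was called lower in M-MDSCs and 1 of 4 in G-MDSCs. Of the platelet and megakaryocyte markers, 1 of 4 was called higher in G-MDSCs. The part of any of these markers in the Smad7 result was not tested.

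**Figure D3:**
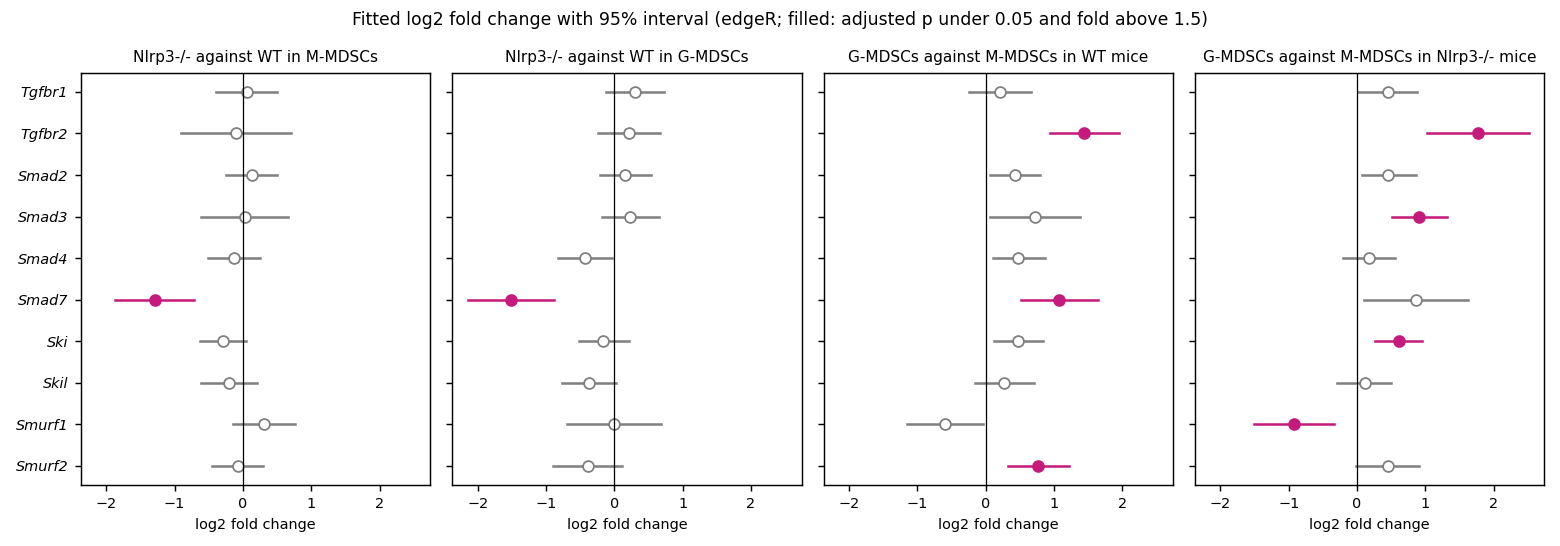
Fitted log2 fold change (x axis) of each of the 10 genes (y axis) in the comparisons of genotype within a subset and of subset within a genotype. Points are estimates, lines are 95% intervals, and filled points are genes called. Smad7 is the only filled point in the genotype panels, at -1.29 and -1.51, and Tgfbr2 is the farthest point to the right in the subset panels, at 1.44 and 1.77.

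Smad7 also differed between the subsets. In WT mice G-MDSCs had 29.4 ± 8.09 CPM against 13.9 ± 3.63 CPM in M-MDSCs, a difference of 1.08 on the log2 scale (SE 0.26; edgeR adjusted p = 0.00353) with no overlap. In Nlrp3-/- mice G-MDSCs had 10.9 ± 3.32 CPM against 5.58 ± 0.923 CPM, a difference of 0.86 (SE 0.35) that was not called (edgeR adjusted p = 0.0526) and was called by DESeq2 at 0.91 (adjusted p = 0.0308). The Nlrp3-/- groups came close, the lowest G-MDSC library at 6.67 CPM and the highest M-MDSC library at 6.48 CPM, both from mouse 2. Nlrp3-/- G-MDSCs, at 10.9 CPM, and WT M-MDSCs, at 13.9 CPM, were the neighbours in the order of the group levels whose libraries overlapped.

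Relative to its partner Smad4 in the same library, Smad7 had 0.214 ± 0.0498 reads per read in WT M-MDSCs and 0.0943 ± 0.0137 in Nlrp3-/- M-MDSCs. In G-MDSCs it had 0.319 ± 0.0772 in WT and 0.162 ± 0.0732 in Nlrp3-/- mice. In both subsets the highest Nlrp3-/- ratio (0.105 and 0.229) lay below the lowest WT ratio (0.140 and 0.262). These ratios, chosen after the values were seen, carry no test.

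Ski, the nuclear co-repressor, was higher in G-MDSCs of Nlrp3-/- mice. Its M-MDSC libraries had 50.1, 44.2, 47.4 and 47.5 CPM there and its G-MDSC libraries 83.2, 81.2, 79.8 and 69.0 CPM, a difference of 0.61 on the log2 scale (SE 0.16; edgeR adjusted p = 0.00536). Without Nlrp3-/- M-MDSC replicate 2 it was 0.56, with an edgeR adjusted p of 0.0172, under the fold minimum. In WT mice the M-MDSC libraries had 50.6 to 67.5 CPM and the G-MDSC libraries 66.8 to 93.4 CPM, overlapping narrowly, and the difference of 0.48 (edgeR adjusted p = 0.027) was under the fold minimum. Between genotypes in M-MDSCs all 4 Nlrp3-/- libraries lay below the WT libraries, by -0.29 (95% interval -0.63 to 0.04), which was not called (edgeR adjusted p = 0.221).

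Skil, which encodes the related co-repressor SnoN and is itself induced by TGF-beta in many cells, was called in no comparison under TMM. With library totals it was lower in G-MDSCs than in M-MDSCs of Nlrp3-/- mice, at -0.61 on the log2 scale (edgeR adjusted p = 0.0091). Its means were 67.9 ± 16.9 CPM in WT M-MDSCs, 57.7 ± 5.24 CPM in Nlrp3-/- M-MDSCs, 81.7 ± 10.5 CPM in WT G-MDSCs and 67.2 ± 13.9 CPM in Nlrp3-/- G-MDSCs. Between genotypes its log2 fold changes were -0.21 in M-MDSCs and -0.37 (95% interval -0.77 to 0.03) in G-MDSCs. Both were above 0 after correction for GC content and length, at 0.23 and 0.21, and neither was called.

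The 2 ubiquitin ligases, which share the task of marking receptors and SMADs for degradation, were each called between the subsets in 1 genotype, Smurf2 as higher in G-MDSCs of WT mice and Smurf1 as lower in G-MDSCs of Nlrp3-/- mice. Smurf2 had 32.3, 45.7, 37.8 and 39.4 CPM in WT M-MDSCs and 47.1, 88.7, 65.7 and 62.7 CPM in the G-MDSCs of the same mice. The WT groups did not overlap, and the difference was 0.77 on the log2 scale (SE 0.21; edgeR adjusted p = 0.00731). Smurf2 in Nlrp3-/- mice had 32.6 to 41.9 CPM in M-MDSCs and 41.9 to 65.7 CPM in G-MDSCs, a difference of 0.45 that was not called (edgeR adjusted p = 0.0881). Between genotypes its log2 fold change was -0.08 in M-MDSCs and -0.39 (95% interval -0.90 to 0.11) in G-MDSCs, neither called.

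Smurf1, counted with 16 to 151 reads per library, was the only member called lower in G-MDSCs under TMM (with library totals Skil was too). In Nlrp3-/- mice the Smurf1 values of the M-MDSC libraries were 16.05, 16.04, 13.58 and 19.4 CPM. The G-MDSC libraries had 8.78, 10.6, 10.1 and 7.61 CPM, all below them, and the difference was -0.93 (SE 0.27; edgeR adjusted p = 0.0107). In WT mice the means were 13.4 ± 1.53 and 8.74 ± 2.06 CPM, again without overlap, and the difference of -0.60 (SE 0.25) was not called (edgeR adjusted p = 0.0626). It was called with library totals (-1.35), with GC and length corrected (-0.66, or -0.68 with the mouse as a block), in 1 fit of all 16 libraries (-0.60) and without WT G-MDSC replicate 3 (-0.71). Between genotypes Smurf1 differed by 0.31 (95% interval -0.14 to 0.76) in M-MDSCs and by -0.00 (95% interval -0.69 to 0.68) in G-MDSCs. A microRNA gene counted on the same strand, Mir7039, lies within Smurf1, and the share of reads between them is uncertain.

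Read in the ratio of Smurf2 to Smurf1, which no scaling changes, M-MDSC libraries lay between 2.03 and 3.65 and G-MDSC libraries between 4.12 and 10.1. M-MDSCs of WT mice averaged 2.93 ± 0.526 and those of Nlrp3-/- mice 2.23 ± 0.180, while G-MDSCs averaged 7.75 ± 2.12 and 5.80 ± 1.33. As with the receptors, the subsets did not overlap, and no test was made.

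**Figure D4:**
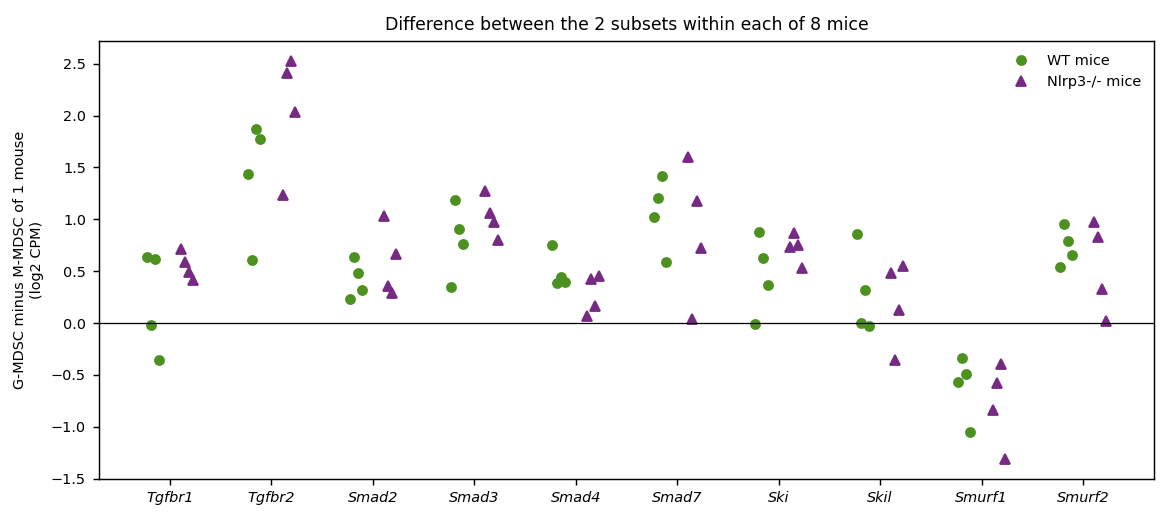
Difference in TMM-scaled log2 CPM between the G-MDSC and the M-MDSC library of the same mouse (y axis) for each of the 10 genes (x axis). Circles are the 4 WT mice and triangles the 4 Nlrp3-/- mice. Tgfbr2 lies above 0 in 8 of 8 mice, between 0.61 and 2.53, and Smurf1 lies below 0 in 8 of 8 mice.

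Since both subsets came from the same spleen, each member was also set against itself within the mouse, by TMM-scaled CPM. Tgfbr2, Smad2, Smad3, Smad4, Smad7 and Smurf2 were higher in G-MDSCs in 8 of 8 mice, although Smad7 by 0.04, Smurf2 by 0.02 and Smad4 by 0.07 on the log2 scale in the nearest mouse. Ski was higher in 7 of 8 mice and Tgfbr1 in 6. Skil was higher in 5 mice and lower in 2. Smurf1 was lower in 8 of 8 mice, by 0.34 to 1.31. The counts of mice with a member higher in G-MDSCs rest on the TMM scaling. With library totals the fitted Smad4 difference was -0.27 in WT and -0.55 in Nlrp3-/- mice, and that of Smad2 -0.32 and -0.25. How many of all genes were higher in 8 of 8 mice was not counted.

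In WT mice 3 of the 10 members were called between the subsets, all higher in G-MDSCs, and 6 did not overlap. Over the 9739 genes tested 53.3% were called, 26.3% higher and 27.1% lower, and 51.9% did not overlap. In Nlrp3-/- mice 4 members were called, 3 higher and 1 lower, and 7 did not overlap. There 51% of the 10071 genes tested were called, 23.7% higher and 27.4% lower, and 50.2% did not overlap. The median log2 difference of the members was 0.48 in WT and 0.46 in Nlrp3-/- mice, against -0.05 and -0.12 over all genes tested.

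The direction of these subset differences rests on the TMM scaling. When libraries were scaled by their totals alone, the median of all genes shifted by -0.74 in WT and -0.71 in Nlrp3-/- mice, and Tgfbr1, Smad2, Smad4, Ski and Skil turned lower in G-MDSCs in both genotypes, with Smad3 turning in WT and Smurf2 in Nlrp3-/- mice. Of all calls 49.2% were higher in G-MDSCs of WT mice under TMM and 18.7% with library totals, and 46.4% and 18.5% in Nlrp3-/- mice. Relative to the median of all genes the members moved little: Tgfbr2 in Nlrp3-/- mice lay 1.89 above it under TMM and 1.87 above it under library totals, and Smurf1 lay at -0.81 from it under both. With library totals alone Tgfbr2 stayed called, at 0.71 in WT and 1.04 in Nlrp3-/- mice, and Smad7 (0.34) and Smurf2 (0.02) in WT and Smad3 (0.20) in Nlrp3-/- mice did not.

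A direct test of whether the genotype effect differed between the subsets called none of the 10 members by edgeR or by DESeq2, and none had an unadjusted p under 0.05. Over all 10696 genes 0.028% were called, and 480 had an unadjusted p under 0.05 (edgeR). The member with the largest estimate was Tgfbr2, at 0.45 (95% interval -0.45 to 1.36). This fit left out that both subsets came from the same mice. With the mouse as a block no member was called either, and the Tgfbr2 estimate was 0.61 (edgeR adjusted p = 0.652).

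The 5 genes whose log2 CPM followed Smad7 most closely over the 16 libraries, of 10686 tested genes outside the 10, were Megf9 (Pearson r = 0.963), Csnk1g1 (0.959), Cpeb4 (0.951), Pik3c2a (0.939) and Gsk3b (0.937). Megf9 encodes a membrane protein with EGF-like domains, Csnk1g1 a casein kinase, Cpeb4 a protein that binds the ends of mRNAs, Pik3c2a a lipid kinase and Gsk3b a protein kinase of the Wnt and insulin pathways. The libraries share mice and scaling, and the correlation is given as a description. Having been picked on these same libraries, their differences between the groups are a description that the choice largely fixes.

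The rest of the pathway was read from 6 lists of 90 genes, of which 70 were tested between genotypes in M-MDSCs and 64 in G-MDSCs. In M-MDSCs 2 were called higher and 7 lower, 12.9% of those tested, against 10.6% over all genes. In G-MDSCs 4 were higher and 12 lower, 25% of those tested, against 16.4% over all genes. With library totals in place of TMM the split was 5 higher and 6 lower in M-MDSCs and 6 higher and 11 lower in G-MDSCs. The M-MDSC count of 9 moved with single libraries: it was 14 without Nlrp3-/- replicate 1, 4 without WT replicate 2, 5 without WT replicate 3, 3 without WT replicate 4, 5 without Nlrp3-/- replicate 3 and 3 without Nlrp3-/- replicate 4. The count over all genes moved in the same direction in each of these fits. From 1060 it went, in the same order, to 1783, 514, 669, 473, 702 and 450, so the change was not particular to the lists. Corrected for GC content and length, the counts were 3 for M-MDSCs and 8 for G-MDSCs. The 9 genes called in M-MDSCs were all called in G-MDSCs, where they were 56.2% of the calls. The same share over all genes called was not counted. Both comparisons draw on the same mice, so the overlap is no independent repeat and cannot be read as particular to the pathway.

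Of 14 genes for ligands, latency and activation 5 were tested in M-MDSCs and 6 in G-MDSCs. Nrros, which encodes a protein that anchors latent TGF-beta on myeloid cells, was called higher in both subsets. It rose from 605 ± 49.5 to 925 ± 163 CPM in M-MDSCs (1.55-fold; edgeR adjusted p = 0.0277). In G-MDSCs it rose from 682 ± 101 to 1329 ± 179 CPM (1.84-fold; edgeR adjusted p = 0.00247). Thbs1, for an extracellular activator of latent TGF-beta, fell in G-MDSCs from 157 ± 44.6 to 83.04 ± 31.55 CPM (2.02-fold; edgeR adjusted p = 0.027). Tgfb1, the ligand itself, was not called between genotypes, at 24.3 ± 7.55 and 30.5 ± 13.6 CPM in M-MDSCs and 5.88 ± 2.49 and 6.92 ± 3.30 CPM in G-MDSCs.

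The nuclear partners of the SMADs were lower where they were called, with 1 exception. Of 16 tested in M-MDSCs 3 fell: the histone acetyltransferase genes Ep300 (1.72-fold) and Crebbp (1.66-fold) and the transcription factor gene Runx1 (1.62-fold). In G-MDSCs the same 3 fell, by 2.01-, 2.18- and 1.85-fold, together with the co-repressor gene Ncor1 (1.52-fold), and the co-repressor gene Tgif2 rose by 2.28-fold, 5 of 15 tested in all. Over all genes tested 10.6% were called in M-MDSCs and 16.4% in G-MDSCs. Most of those calls were lower too under TMM, 709 of 1060 and 1086 of 1522. With library totals 54.6% of all calls were higher in M-MDSCs and 48.1% in G-MDSCs.

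Of the regulators of receptor and SMAD turnover outside the 10 genes, 5 of 18 were called in M-MDSCs and 5 of 17 in G-MDSCs. That is 27.8% and 29.4%, against 10.6% and 16.4% over all genes tested. As given above, the counts over the 6 lists fell with the GC and length correction and, in M-MDSCs, moved with single libraries. Usp9x, whose product removes ubiquitin from SMAD4, fell by 2.38-fold in M-MDSCs (29.4 ± 3.93 to 12.1 ± 3.45 CPM; edgeR adjusted p = 0.00773) and by 2.73-fold in G-MDSCs (35.0 ± 6.40 to 13.6 ± 4.17 CPM; edgeR adjusted p = 0.00184). Usp15, another deubiquitinase of the pathway, fell by 1.94-fold and 2.31-fold. The ubiquitin ligase genes Itch (2.19-fold and 2.03-fold) and Rnf111 (1.59-fold and 1.69-fold) also fell. Wwp2, for a ligase of the same family as the SMURFs, rose by 1.62-fold and 1.55-fold. Rnf111 encodes Arkadia, which degrades SMAD7, SKI and SnoN, so this list holds agents that act on the pathway in opposite ways.

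Neither the 8 other receptors tested nor the 12 genes of the SMAD-independent branch nor the 11 target genes tested had a gene called in M-MDSCs by edgeR, with 1, 2 and 2 genes at an unadjusted p under 0.05. DESeq2 called 1 of them, the target gene Cdkn1a. Over all genes tested in M-MDSCs 10.6% were called, and 3002 of 9986 had an unadjusted p under 0.05 (edgeR). In G-MDSCs none of the 4 other receptors tested was called by edgeR or DESeq2, with 0 at an unadjusted p under 0.05. Over all genes tested in G-MDSCs 16.4% were called, and 2997 of 9273 had an unadjusted p under 0.05 (edgeR). There the phosphoinositide 3-kinase subunit gene Pik3r1 fell by 1.78-fold. Of the target genes Junb, for an AP-1 subunit, rose by 1.64-fold, while Cdkn1a, for the cell cycle inhibitor p21, fell by 2.07-fold and the kinase gene Sik1 by 2.27-fold. These 3 targets thus moved in both directions in G-MDSCs.

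**Figure D5:**
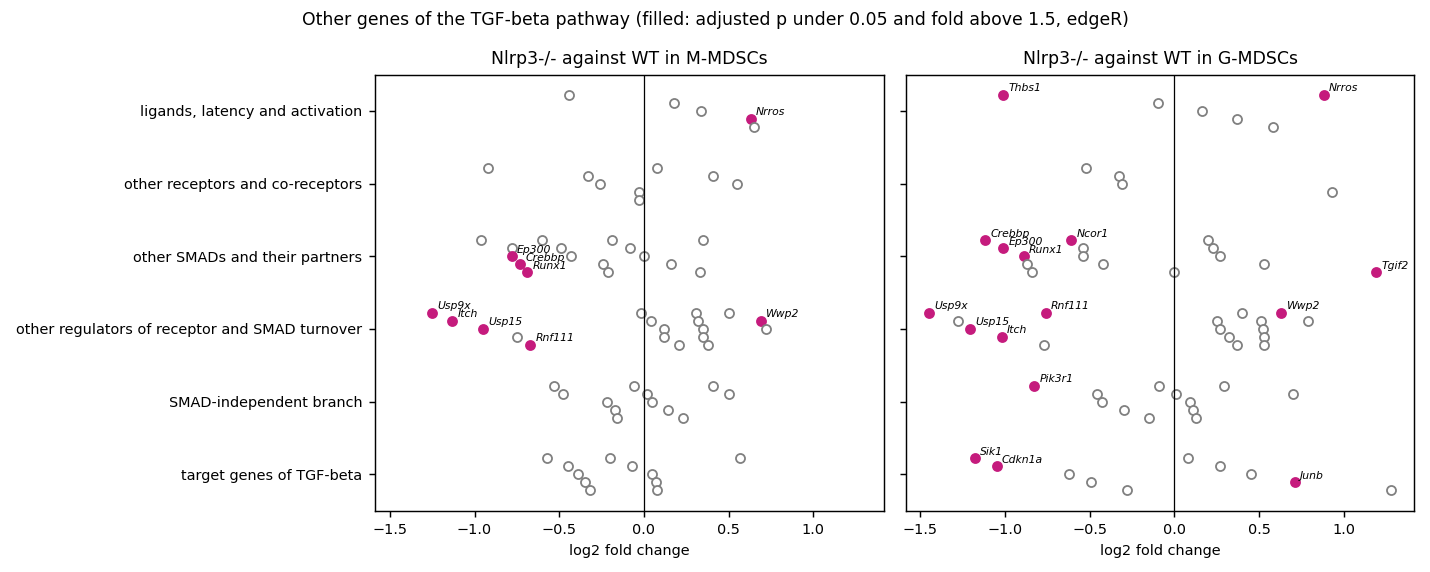
Fitted log2 fold change between Nlrp3-/- and WT libraries (x axis) of the tested genes of 6 pathway lists (y axis), in M-MDSCs on the left and G-MDSCs on the right. Each point is a gene, the vertical position within a list has no meaning, and filled, named points are genes called. Nrros and Wwp2 are called higher and Ep300, Crebbp, Runx1, Usp9x, Usp15, Itch and Rnf111 lower in both panels.

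Between the subsets of WT mice 39 of 69 tested list genes were called, 21 higher and 18 lower in G-MDSCs, or 56.5%, near the share over all genes. With library totals alone 7 were higher and 33 lower. Tgfb1 was 4.11-fold lower in G-MDSCs and Furin, for the protease that processes its precursor, 2.36-fold higher. Bmpr1a, a BMP receptor, had 115 reads over the 4 WT G-MDSC libraries and 1 over the 4 WT M-MDSC libraries, a ratio of 191 (exact 95% counting interval 33.6 to 7610), and Acvr2b, an activin receptor with 0 to 3 reads per WT G-MDSC library, was 6.80-fold lower. Zfyve9, whose product SARA presents SMAD2 and SMAD3 to the receptor, had 172 reads in WT M-MDSCs and none in WT G-MDSCs. That is 34.5-fold lower against a floor of 3 reads over the group, and the exact 95% counting interval starts at 27.8-fold. Tgif2 was 3.55-fold higher.

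Ldlrad4, for an inhibitor of SMAD phosphorylation, was 7.23-fold lower in WT G-MDSCs, where it had only 0 to 3 reads per library. Fkbp1a, whose product keeps the type I receptor inactive, was 5.34-fold lower. Of the SMAD-independent branch Tab3, for a partner of the kinase TAK1, was 2.99-fold and Pik3r1 2.82-fold higher. Of the target genes Fn1, for fibronectin, was at 699 ± 144 CPM in WT M-MDSCs and 1.43 ± 1.74 CPM in WT G-MDSCs. Id3, for an inhibitor of DNA-binding factors, was 24.5-fold lower in WT G-MDSCs, from 1 to 24 reads per library there. In Nlrp3-/- mice 37 of 68 list genes were called between the subsets, 19 higher and 18 lower, 54.4% of those tested, and 6 higher and 31 lower with library totals alone.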

How the data were processed

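QuantSeq 3′ mRNA libraries were counted per gene symbol. Per the labels and the study's methods, the authors aligned reads with HISAT2 2.1.0 to mm10 and counted them with htseq-count. The deposited values are raw read counts per symbol, one table for each of 16 libraries. Since reads fall at the 3′ end, levels were not compared between genes. Intervals on read numbers cover counting error only.

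Counts were tested with edgeR 4.0.16 (R 4.3.3): low-count filtering with filterByExpr, TMM scaling and the quasi-likelihood test within the libraries of each contrast, with Benjamini-Hochberg adjustment over all genes tested. DESeq2 1.42.0 was an alternative, with other scalings, no filter, no fold minimum, 1 fit of all 16 libraries, a GC and length correction (spline on GENCODE vM21 transcripts, 24032 of 24421 symbols matched), replicate blocks and leaving out each library. The fits were also run on simulated counts, whose outcome is not given here. Those counts held no mouse pairing and no GC or length bias, so they cannot show how the block or the correction performs. Figures were drawn with matplotlib 3.10.9.

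The 10 genes and all lists were chosen with earlier results of these data known. Named list genes are those called in either genotype comparison and, per list, the 2 with the largest called subset difference in WT mice. For Smad7 the 5 genes with the highest Pearson correlation are named. The ratios of read counts were chosen after the values had been seen. M-MDSC and G-MDSC libraries with the same number are labelled as the same mouse. Their deviations from the group means correlated at 0.10 to 0.40 in WT (mean 0.24) and 0.01 to 0.38 in Nlrp3-/- mice (mean 0.19). Of 8 libraries per genotype, 7 in WT and 6 in Nlrp3-/- mice correlated best with their own mouse. The means between different mice, -0.08 and -0.06, follow from centering on the group means and carry no information of their own. None of the 24 pairs of libraries within a group held identical values (chi-square per degree of freedom at least 6.76).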

Additional observations from a re-analysis of the deposited data

Results flagged for a closer look

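In 3 of the 40 sets of 4 libraries formed by the 10 genes and the 4 groups, 1 library stood apart from the rest by Dixon's test at its 95% critical value, where chance marks about 1 in 20 sets. Smad2, a SMAD activated by the receptor, was at 30.7 CPM in Nlrp3-/- M-MDSC replicate 1, the lowest of its group, whose highest library had 47.9 CPM. Smad4, the shared SMAD, was at 47.0 CPM in WT M-MDSC replicate 1, below the other 3 libraries, which reached 72.6 CPM. Skil, the co-repressor gene, was at 65.5 CPM in Nlrp3-/- M-MDSC replicate 2, the highest of its group, whose lowest library had 54.7 CPM. The same Nlrp3-/- M-MDSC replicate 1 held the highest Tgfbr2 level of its group, 37.5 CPM.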

How the results depend on the processing

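Smad7 was called lower in Nlrp3-/- cells in both subsets under all alternatives and all fits without 1 library, with the exception of the GC and length correction with replicate block in M-MDSCs (-1.45, edgeR adjusted p = 0.0582), where no member and none of the 70 other pathway genes was called (0 and 0). Of the 480 values of members from fits without 1 library 450 kept direction and side of the threshold, 25 turned direction, 4 became called and 1 was lost; over the other alternatives 381 kept both, 27 turned, 17 became called and 5 were lost. The cause of these changes was not tested.

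WT and Nlrp3-/- libraries share replicate numbers but not animals: same-numbered libraries correlated at -0.45 to 0.02 in M-MDSCs and -0.26 to -0.04 in G-MDSCs, and 0 of 8 correlated best with their own number in either subset. With the replicate block 425 in place of 1060 genes were called in M-MDSCs and 985 in place of 1522 in G-MDSCs, with 4 in place of 9 other pathway genes in M-MDSCs. With GC and length correction these were 655 and 965 genes, 3 and 8 in place of 9 and 16 other pathway genes, and 3 members in G-MDSCs. With GC and length correction and block they were 48 and 401 genes and, in G-MDSCs, 6 other pathway genes. The mouse as a block changed no subset call of a member other than that of Smad3 in WT mice.

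Between the subsets of WT mice 6 members were called with no fold minimum, 5 in the fit of all 16 libraries and 5 with GC correction and block, in place of 3. Over all genes the interaction called 3, against 8 by DESeq2 and 5 with no filter. Without 1 library, 3 to 14 other pathway genes were called between genotypes in M-MDSCs, and 450 to 1783 genes in all.

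Between genotypes in M-MDSCs, small values turned direction: Tgfbr2 to 0.01 and Smurf2 to 0.03 with library totals, Tgfbr2 to 0.12, Skil to 0.23 and Smurf2 to 0.17 with GC and length correction, and Skil to 0.25 and Smurf2 to 0.17 with GC correction and block. In G-MDSCs Smurf1 turned to 0.01 with DESeq2 and with its size factors, 0.13 with library totals, 0.00 with no filter, 0.02 with the block and 0.08 in the fit of all libraries, and Skil to 0.21 with GC correction and 0.19 with GC correction and block. With library totals, subset differences in WT mice turned to -0.54 (Tgfbr1), -0.32 (Smad2), -0.03 (Smad3), -0.27 (Smad4), -0.27 (Ski) and -0.48 (Skil). In Nlrp3-/- mice they turned to -0.27 (Tgfbr1), -0.25 (Smad2), -0.55 (Smad4), -0.11 (Ski), -0.61 (Skil) and -0.26 (Smurf2).

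Without 1 library the M-MDSC genotype values ran from -0.06 to 0.17 (Tgfbr1), -0.69 to 0.12 (Tgfbr2), -0.16 to 0.46 (Smad3) and -0.19 to 0.02 (Smurf2), and Smurf1 in G-MDSCs from -0.13 to 0.14. The differences between the subsets' genotype effects ran from -0.16 to 0.23 (Smad2), -0.11 to 0.49 (Smad3), -0.43 to 0.10 (Smad7) and -0.39 to 0.09 (Skil). Smad7 rested on 27 to 125 reads per library and Smurf1 on 16 to 151, which limits the size of difference that could be seen.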
